A study of Mus musculus with 54 samples.

Results

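The 10 gut peptide hormone genes Gip, Cck, Gcg, Pyy, Nts, Sct, Ghrl, Tac1, Sst and Iapp were followed through 16 bulk mRNA libraries and 4 single-cell samples of the mouse small intestine. They were taken by name, and all 10 were found in the mRNA table, which has 48440 entries, and in the matrices, which list 27933 genes. In the single-cell samples they were read in cells with at least 1 UMI (unique molecular identifier, one captured transcript) in 4 or more of 9 endocrine markers, namely Chga, Chgb, Neurod1, Isl1, Pax6, Scg5, Fev, Scgn and Cpe. After filtering, 131 of 8719 cells passed this gate.

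Bulk mRNA was read in crypt cells sorted as Sox9-EGFP Low from C57BL/6J mice, which carry a green fluorescent reporter of the gene Sox9. There were 4 libraries each from mice on chow, mice on a high fat diet, germ-free mice, which have no microbes, and conventionalized mice, which are germ-free mice given a microbiota. Single cells came from small intestine of mice aged 12 months, strain C57BL6/2J, as a first and a second set, each with 1 WT sample and 1 sample that lacks miR-375 (KO). The labels do not say how many mice entered a single-cell sample, nor the age of the sorted mice, so p-values measure only the spread between these samples. Mir375 is not a feature of the matrices, so the knockout could not be checked in them.

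Enteroendocrine cells are scattered hormone-producing cells of the gut lining that sense the lumen and release peptides and serotonin. Their peptides are made as longer precursors, cut by prohormone convertases and stored in granules whose chromogranins and secretogranins serve as general markers. The classical scheme named a cell type after its main product: K cells for GIP, I cells for CCK, L cells for GLP-1 and PYY, N cells for neurotensin, S cells for secretin, X cells for ghrelin, D cells for somatostatin, and enterochromaffin cells for serotonin and substance P. Later single-cell work showed that many of these cells hold several peptides.

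The genes are scattered over the mouse genome (build GRCm38, GENCODE annotation). Gip is on chromosome 11 (96024545 to 96030831, plus strand), as is Pyy (102106676 to 102107832, minus strand). Ghrl (113716119 to 113719880, minus), Tac1 (7554879 to 7565834, plus) and Iapp (142298423 to 142303961, plus) are far apart on chromosome 6. Gcg is on chromosome 2 (62474530 to 62483650), Sct on chromosome 7 (141278330 to 141279133), Cck on chromosome 9 (121489824 to 121495694), Nts on chromosome 10 (102481756 to 102490486) and Sst on chromosome 16 (23889573 to 23890958), all on the minus strand.

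The 250 bases before the start of 4 hormone genes whose chow and high fat diet libraries did not overlap are shown to set their promoters side by side. They are from RefSeq (GRCm38.p6), 5′ to 3′ on the gene's strand, at chr11:96024295-96024544 (Gip, plus), chr7:141279134-141279383 (Sct, minus), chr2:62483654-62483903 (Gcg, minus) and chr9:121495695-121495944 (Cck, minus). Capitals mark the homeodomain core TAAT and the TATA box TATAAA, each on either strand.
Gip: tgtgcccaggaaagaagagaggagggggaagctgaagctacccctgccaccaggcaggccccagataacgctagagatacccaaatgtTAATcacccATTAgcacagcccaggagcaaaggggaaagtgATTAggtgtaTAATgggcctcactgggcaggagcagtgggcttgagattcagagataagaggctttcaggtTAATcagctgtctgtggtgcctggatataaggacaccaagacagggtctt
Sct: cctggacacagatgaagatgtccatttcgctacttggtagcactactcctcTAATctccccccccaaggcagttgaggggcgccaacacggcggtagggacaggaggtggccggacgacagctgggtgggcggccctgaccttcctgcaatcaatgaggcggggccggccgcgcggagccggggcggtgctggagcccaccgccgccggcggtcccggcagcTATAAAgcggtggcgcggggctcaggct
Gcg: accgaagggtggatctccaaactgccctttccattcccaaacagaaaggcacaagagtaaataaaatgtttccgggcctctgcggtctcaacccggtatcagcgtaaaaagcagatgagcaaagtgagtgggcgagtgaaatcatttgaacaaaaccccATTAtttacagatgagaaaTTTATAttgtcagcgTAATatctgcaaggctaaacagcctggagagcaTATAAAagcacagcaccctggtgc
Cck: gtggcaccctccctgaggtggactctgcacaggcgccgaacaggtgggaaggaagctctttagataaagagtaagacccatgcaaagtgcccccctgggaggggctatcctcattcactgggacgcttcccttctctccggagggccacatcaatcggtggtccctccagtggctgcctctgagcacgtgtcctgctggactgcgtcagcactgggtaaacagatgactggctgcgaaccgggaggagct
The Gip window holds 5 matches to TAAT, and 5.51% of all 32536 distinct promoter windows of this length hold 5 or more. Gcg has 2 such matches, Sct has 1 and Cck has none, while 54.8% of all windows have at least 1. TATAAA is present in Gcg and Sct and in 12.3% of all windows. The 10 hormone genes have 14 windows, since some have more than 1 start. An E-box, CANNTG, is present in at least 1 window of each of the 10, though some Ghrl windows hold none, and in 66.2% of all windows. The cyclic AMP response element TGACGTCA was found in the Sst window alone among the 10 genes and in 1.56% of all windows. That Sst window overlaps an exon of Sst.

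The 16 mRNA libraries held an estimated 6829092 to 21812322 reads, and the 10 hormone genes took between 0.566% and 6.14% of a library's normalized counts. Their summed share was 3.19% to 6.14% in germ-free, 0.879% to 1.56% in conventionalized, 1.77% to 6.10% in chow and 0.566% to 1.52% in high fat diet libraries. Fewer endocrine cells in a sort and less hormone RNA per cell cannot be told apart in these bulk libraries. The sample codes of chow replicate 3 and high fat diet replicate 3 carry the opposite diet in the column names of the series' small RNA table. The mRNA labels were followed, and results of that comparison are also given without both libraries.

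Per kilobase of exon, Gip was the most abundant hormone mRNA of chow mice, with a median of 329776 normalized counts per kb and a range of 182969 to 432512. Sct came next (median 138827, range 70409 to 311892), then Sst (79702, 39739 to 127207), Pyy (29386, 9266 to 61867), Ghrl (25608, 9854 to 48683) and Cck (19515, 12946 to 64575). Nts (13614), Gcg (9298), Iapp (3502) and Tac1 (1208) had the lowest medians. Every pair of neighbours in this order overlapped in range over the 4 libraries except Gcg and Iapp, so the ranges do not separate the other neighbours. Within each of the 4 libraries, however, Gip was above Sct, Sct above Sst and Sst above Pyy.

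**Figure D1:**
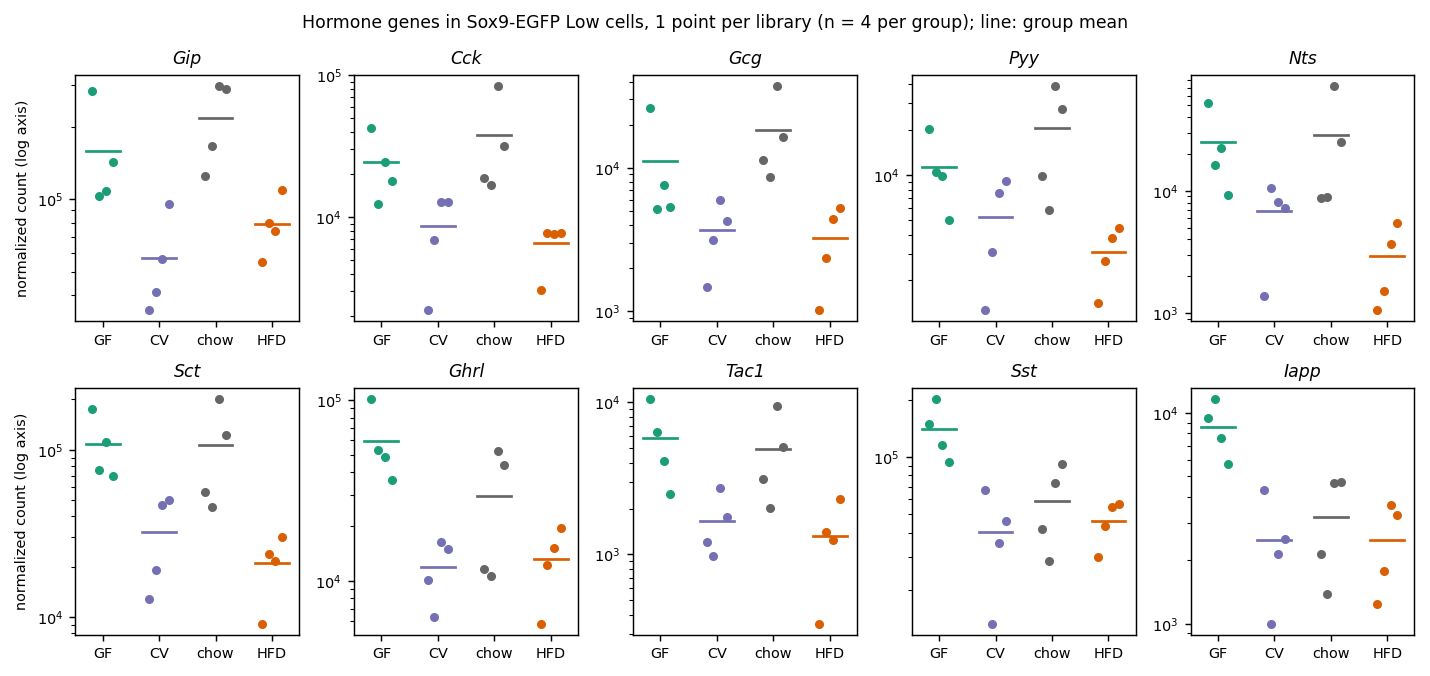
Normalized counts on a log axis for each hormone gene in germ-free (GF), conventionalized (CV), chow and high fat diet (HFD) Sox9-EGFP Low cells, 1 point per library and a line at each group mean (n = 4). Germ-free Ghrl lies between 36140 and 101393 and conventionalized Ghrl between 6337 and 16361, and Sst and Iapp are the genes with the smallest gap between chow and high fat diet.

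The first comparison asked how the hormone genes differ between germ-free and conventionalized mice. All 10 had higher means in germ-free than in conventionalized mice, by log2 differences of 1.31 to 2.31, and Ghrl and Iapp passed the test. Mean levels in chow mice were above the germ-free ones for Gip, Cck, Gcg, Pyy and Nts. They were below them for Ghrl, Iapp, Sst, Sct and Tac1. The comparison alone thus does not say which of its groups moved. Ghrl, which encodes ghrelin, the hunger hormone that is acylated by Mboat4, stood at 101393, 52876, 48687 and 36140 normalized counts in the germ-free libraries and at 10067, 6337, 16361 and 15005 in the conventionalized ones. The groups did not overlap, and ghrelin mRNA was 4.95-fold higher in germ-free mice (log2 difference 2.31, standard error 0.45, limma with Benjamini-Hochberg adjusted p 0.0225). Iapp, the precursor of amylin, a peptide best known from pancreatic beta cells, stood at 9465, 11655, 7655 and 5713 in germ-free and at 4334, 1003, 2149 and 2532 in conventionalized libraries. It was also higher in germ-free mice without overlap, 3.78-fold (log2 difference 1.92, standard error 0.40, limma adjusted p 0.0302). These 2 called members of 10 stand beside 2.24% of 20214 tested genes called in either direction, 1.95% higher and 0.292% lower in germ-free mice.

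Somatostatin (Sst), which inhibits the release of other gut hormones, was listed at 149340, 201327, 115119 and 93636 normalized counts in germ-free and 67065, 13387, 35499 and 46198 in conventionalized libraries. It differed by 1.95 on the log2 scale (standard error 0.59, limma adjusted p 0.114). Secretin (Sct), which drives bicarbonate secretion, had 174716, 76288, 111622 and 69509 against 12827, 19093, 46700 and 50053, a difference of 1.87 with limma (adjusted p 0.117). The incretin gene Gip had 283792, 103174, 108754 and 142723 against 34610, 41048, 56371 and 96071, a difference of 1.47 with limma (adjusted p 0.202). For Ghrl, Iapp, Sst, Sct and Gip every germ-free library was above every conventionalized one, a separation that 12.5% of all tested genes showed in either direction.

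The other 5 genes overlapped between the groups. Tac1, the precursor of substance P, had 10453, 6371, 4074 and 2475 normalized counts in germ-free and 1204, 971, 2737 and 1757 in conventionalized libraries, a log2 difference of 1.72 (limma adjusted p 0.0645). Germ-free replicate 4 was the one that fell below conventionalized replicate 3. Nts, the precursor of neurotensin, differed by 1.93 (limma adjusted p 0.147), and Cck, whose product empties the gall bladder, by 1.63 (0.158). Gcg, the source of GLP-1 and GLP-2 in the gut, differed by 1.39 (limma adjusted p 0.195), and Pyy, which encodes the satiety peptide YY, by 1.31 (0.238). All 10 genes had an unadjusted limma p under 0.05. The share of all tested genes at that limit is not reported here for the mRNA comparisons, so such counts stand without a background. The median difference of the 10 was 1.80 against 0.11 over all tested genes.

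No hormone gene was called without germ-free replicate 1 or without conventionalized replicate 2, and 1 was called without conventionalized replicate 1, 3 or 4. With the spread taken from all mRNA groups 4 were called, among 1672 genes in all. Over all tested genes, fits with 1 library left out called 1 to 684, against 453 with every library. Without germ-free replicate 1 the differences of Ghrl and Iapp were 2.02 and 1.86, and without conventionalized replicate 2 they were 2.04 and 1.54.

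The genes that process and store the peptides were higher too. Of 12 prohormone processing and granule genes 8 were called higher and none lower, with a median log2 difference of 2.06. Without germ-free replicate 1 none of the 12 was called (median 1.92), and without conventionalized replicate 1 or 2 the number was 5. Pcsk1, the convertase that cuts many gut prohormones, stood at 7071, 4225, 10177 and 4351 normalized counts in germ-free and 1189, 936, 1807 and 1487 in conventionalized libraries. It was 4.58-fold higher in germ-free mice (limma adjusted p 0.0129). Scg2, a granule secretogranin, was higher by 2.45, Vgf by 2.31, Scg5 by 2.21, Scg3 by 2.03 and Cpe, the carboxypeptidase that trims cut peptides, by 1.95. Of the 9 endocrine markers 6 were called higher, with a median of 1.95. All 9 separated the groups without overlap, as 12.5% of all tested genes did in either direction. These lists share genes. Chga, Chgb, Scg5 and Cpe are both markers and processing and granule genes. Neurod1, Isl1, Pax6 and Fev are both markers and transcription factors of the list below.

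Among 26 hormone receptor genes 16 passed the filter on low values and 4 were called, all higher in germ-free mice. They were the GLP-1 receptor Glp1r (log2 difference 3.05), the somatostatin receptors Sstr1 (2.61) and Sstr5 (2.51), and the peptide YY receptor Npy1r (2.27), with limma adjusted p-values of 0.0129, 0.0139, 0.0129 and 0.0497. Of 13 nutrient and bile acid sensing genes 3 were called higher. They were the irritant channel Trpa1 (2.55), the short-chain fatty acid receptor Ffar2 (2.06) and the sulfonylurea receptor Abcc8 (2.01). Of 14 other gut peptide and serotonin genes 7 were tested and 3 were called higher, namely the serotonin pathway genes Slc18a1 (2.55), Tph1 (2.46) and Ddc (1.29). Of 21 enteroendocrine transcription factors 13 were called higher, led by Lmx1a (2.51), Neurod1 (2.39) and Myt1 (2.00), followed by Fev (1.91), Insm1 (1.91) and Rfx6 (1.83). None of these lists had a gene called lower. Without germ-free replicate 1 none of the genes of these lists or of the 9 endocrine markers was called, and 1 gene was called over all those tested, while the median of the transcription factors was 1.40. Without conventionalized replicate 1 or 2 the called transcription factors numbered 8 and 7.

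Other cell types were read beside these results. Of 10 enteric neuron and glia markers 7 were tested and 1 was called higher, and their summed level was 1609 to 3797 normalized counts in germ-free and 406 to 904 in conventionalized libraries. Of 8 stromal and endothelial markers 5 were tested and 1 was called higher, with sums of 289 to 715 against 33.0 to 275. Of 7 stem cell markers none was called, and the sums were 11712 to 66246 against 58385 to 116334. Their part in the hormone results was not tested.

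Each hormone gene was also set against the mean log2 level of the 9 endocrine markers in the same library. Relative to these markers no hormone gene differed between germ-free and conventionalized mice by the limma test, 0 of 10 also had an unadjusted p under 0.05, and 58.4% of all tested genes were called on this scale, 0.0346% higher and the rest lower. None of the 10 separated the groups, as 53.3% of tested genes did. The relative differences ran from -0.65 for Pyy (95% interval -1.72 to 0.42) to 0.34 for Ghrl (95% interval -0.79 to 1.48). In this fit limma draws part of each gene's spread from all tested genes, which carry the marker mean's own spread between libraries. The intervals are thus not a measure of how closely a hormone gene followed the markers.

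**Figure D2:**
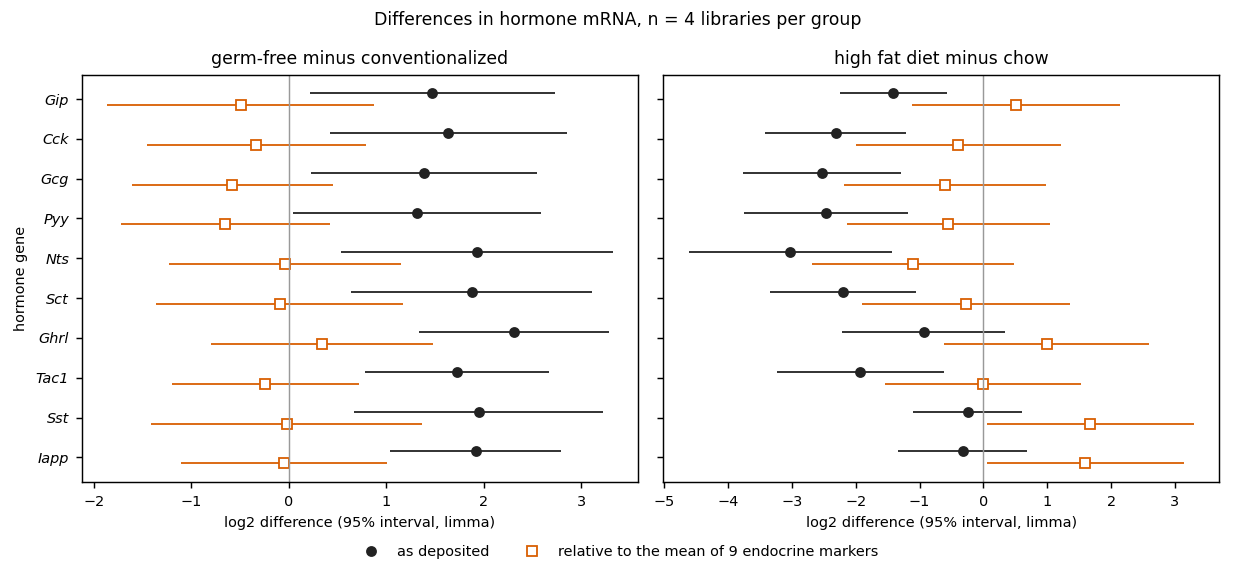
Log2 differences of the 10 hormone genes with 95% intervals from limma for germ-free minus conventionalized (left) and high fat diet minus chow (right), n = 4 libraries per group, as deposited (filled circles) and relative to the mean of 9 endocrine markers (open squares). On the left all filled circles lie above 0 and the squares lie near 0, between -0.65 and 0.34. On the right Sst and Iapp have filled circles at -0.25 and -0.33 and squares at 1.67 and 1.59.

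The next comparison asked how a high fat diet changes the hormone genes. All 10 had lower means on the high fat diet than on chow, by log2 differences of -0.25 to -3.03, and none passed the limma test, which called 0.822% of 16421 tested genes, 0.615% lower and 0.207% higher. Of the 10, 7 had an unadjusted limma p under 0.05, a count again without a share over all tested genes beside it. The median difference of the 10 was -2.07, against 0.05 over all tested genes.

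The 6 genes whose groups did not overlap, a separation that 16.2% of tested genes showed in either direction, were Nts, Gcg, Pyy, Cck, Sct and Gip. Nts stood at 8714, 8866, 72438 and 25115 normalized counts on chow and at 1055, 1502, 3668 and 5489 on the high fat diet. Chow replicate 3 was the highest library, and the difference was -3.03 (standard error 0.72, limma adjusted p 0.0739). Gcg had 11292, 8645, 37375 and 16490 on chow against 1016, 2344, 4370 and 5236, a difference of -2.53 with limma (adjusted p 0.0635). Pyy had 9777, 5847, 39038 and 27308 against 1423, 2677, 3811 and 4434, a difference of -2.47 with limma (adjusted p 0.0717). Within each group the values of Gcg and Pyy spanned 3.12-fold to 6.68-fold.

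Cck had 18997, 16894, 84271 and 31937 normalized counts on chow and 3086, 7704, 7640 and 7697 on the high fat diet, a difference of -2.32 (standard error 0.50, limma adjusted p 0.0623, the lowest of the 10). Sct had 56216, 45414, 201171 and 122870 against 9162, 23841, 21561 and 30199, a difference of -2.20 with limma (adjusted p 0.0717). Gip had 125700, 166239, 297136 and 286873 against 55090, 79663, 73736 and 109232, a difference of -1.41 with limma (adjusted p 0.0858). Of these 3 genes Gip had the smallest difference, and its lowest chow library stood just above its highest high fat diet library.

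Tac1, with 3136, 2024, 9366 and 5079 against 352, 1398, 1243 and 2317 normalized counts, differed by -1.93 (limma adjusted p 0.0951) and overlapped. Ghrl had 11693, 10632, 52529 and 43569 against 5799, 12258, 15232 and 19696, a difference of -0.93 with limma (adjusted p 0.331). Sst had 42088, 28652, 72843 and 91717 against 29975, 43489, 54863 and 56612, a difference of -0.25 (95% interval -1.10 to 0.61, limma adjusted p 0.736). Iapp had 2148, 1387, 4673 and 4704 against 1243, 1772, 3659 and 3266, a difference of -0.33 (95% interval -1.34 to 0.68, limma adjusted p 0.699). Ghrl, Sst and Iapp thus had the smallest differences of the 10, and their groups overlapped.

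The column names number replicates 1 and 2 of both diets in one series and replicates 3 and 4 in another, and do not say what the numbers stand for. Within the first series the differences were -2.80 for Nts, -2.68 for Gcg, -1.95 for Pyy, -1.88 for Cck, -1.77 for Sct and -1.13 for Gip, and within the second they were -3.25, -2.38, -2.99, -2.76, -2.62 and -1.70. Sst differed by 0.06 in the first series and -0.55 in the second. With the series as a term in the limma fit 7 hormone genes were called lower (Nts, Gcg, Pyy, Cck, Sct, Gip and Tac1), among 1535 genes called in all. Without chow replicate 2, 7 hormone genes were also called, and fits with 1 library left out called at most 2590 genes in all. With every library and no such term 135 of 16421 tested genes were called. Without both replicates numbered 3 none was called, and the differences ran from -0.19 for Sst to -2.60 for Nts.

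Relative to the endocrine markers, Sst and Iapp were the 2 hormone genes highest on the high fat diet, by 1.67 (95% interval 0.05 to 3.30, limma adjusted p 0.0537) and 1.59 (0.05 to 3.14, 0.0533). The standard errors of the 10 ran only from 0.78 to 0.83, since limma drew each toward a spread shared by all tested genes. On this scale every tested gene carries the marker mean's own spread between libraries. These intervals and p-values thus do not measure how closely a hormone gene followed the markers. None of the 10 was called on this scale, on which 80.4% of all tested genes were called, 80.3% higher and 0.0731% lower. The groups did not overlap for Sst, Iapp and Sct, as for 62.3% of tested genes. Nts (-1.10), Gcg (-0.60), Pyy (-0.55), Cck (-0.40), Sct (-0.28) and Tac1 (-0.01) were on the other side of 0, and Gip (0.51) and Ghrl (0.99) on the same side as Sst. Without both replicates numbered 3 the relative values of Sst and Iapp were 1.34 and 1.22.

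Few genes of the surrounding pathway were called on the high fat diet, and each of those was lower. They were 0 of 12 processing and granule genes, 0 of 11 tested hormone receptors, and 2 of 13 nutrient sensors, namely the fatty acid receptors Ffar3 (log2 difference -2.49, limma adjusted p 0.0442) and Ffar1 (-2.40, 0.0371). The satiety peptide gene Cartpt was the 1 called among 7 tested other peptide and serotonin genes (-2.67, limma adjusted p 0.0371). In the single-cell samples Cartpt had no UMI in kept cells inside or outside the gate. Of 21 transcription factors Etv1 (-2.86) and Rfx6 (-1.98) were called, and of the 9 endocrine markers Scgn (-2.19). Markers of tuft cells, another rare epithelial type, were also lower, with 4 of 7 called and a summed level of 10613 to 24736 normalized counts on chow against 1209 to 6105 on the high fat diet. Their part in the hormone results was not tested. The counts changed with the libraries used. Over all tested genes, fits with 1 library left out called 0 to 2590, against 135 of 16421 with every library. Without chow replicate 2, 10 of 12 processing and granule genes, 6 of 11 receptors, 8 of 13 sensors, 14 of 21 transcription factors, 9 of 9 endocrine markers and 6 of 7 tuft cell markers were called lower, and with any other library left out at most 1 gene of each of these lists was.

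Conventionalized and chow mice were also compared. This comparison shares its conventionalized libraries with the first one and its chow libraries with the diet comparison. No hormone gene was called, and limma called 0.0948% of 17941 tested genes. An unadjusted limma p under 0.05 was found for 7 of the 10, without a share over all tested genes beside it. All 10 had lower means in conventionalized mice, from -2.25 for Gcg, -2.11 for Cck, -1.96 for Gip and -1.96 for Pyy to -0.61 for Sst and -0.37 for Iapp, with a median of -1.77 against 0.04 over all tested genes. Gcg, Gip and Cck did not overlap between the groups, as 6.55% of tested genes did not.

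Across the 16 libraries, after each group's mean was removed, Sst and Iapp were closest to each other, without a clean split from the other 8. Pearson's r between Sst and Iapp was 0.95. Over the 28 pairs of the other 8 genes r had a median of 0.85 (0.67 to 0.96), and over the 16 pairs of Sst or Iapp with one of those 8 it had a median of 0.42 (0.14 to 0.78). Ghrl was about as close to Iapp (0.78) and Sst (0.73) as to Cck (0.73) and Nts (0.73). Tac1 was about as close to Iapp (0.67) as to Gip (0.67). All these values share the libraries, their scaling and the endocrine cell content of each sort, and are given as a description. Among 18682 genes the ones most like Sst were Hhex (r 0.92), Asic5 (0.89) and Serpina1a (0.88), and those most like Iapp were Asic5 (0.95), Hhex (0.94) and Tmem140 (0.89). Gip was most like the fatty acid binding protein gene Fabp5 (0.95), followed by C2cd4b (0.92) and Myl7 (0.92). Cck was most like Scg2 (0.92), Rom1 (0.92) and Ffar1 (0.92), Tac1 most like Ucn3 (0.93), Fxyd6 (0.93) and Tmem38a (0.93), and Ghrl most like Gm44033 (0.97), Rprml (0.96) and Gfra3 (0.95). Sct (Otulinl, Ctsf, Pi16), Gcg (Fam216a, Otulinl, Scgn), Nts (Rai2, Fam216a, Gm11549) and Pyy (B9d2, Cdk3-ps, Trmt9b) had their closest genes at r of 0.93 to 0.97.

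In set 1 the gate was passed by 31 of 1185 kept WT cells and 28 of 1229 KO cells, and in set 2 by 33 of 3156 WT cells and 39 of 3149 KO cells. The hormone genes, which the gate did not use, gave 7.50%, 6.92%, 3.91% and 3.68% of the UMIs of gated cells in that order and 0.00599% to 0.0114% of those of all other kept cells. Enterocyte markers summed to 1154 to 4908 CPM (UMI counts scaled to a common total) in gated and 7559 to 20011 in other cells, and tuft cell markers to 2.35 to 11.5 and 27.6 to 107 CPM. Stem cell markers were higher in gated cells, at 249 to 343 CPM against 139 to 179 in other cells, as were enteric neuron and glia markers, at 59.1 to 139 against 1.17 to 1.74 CPM. Paneth cell markers summed to 36538 CPM in gated cells of KO set 1 and 1431 to 3227 in the other samples. Kept cells of WT and KO shared 1 barcode in set 1 and 3 in set 2. Doublet scores removed 13 gated cells of WT set 2 and 29 of KO set 2 and none of set 1, so that 173 cells passed the gate before that step. The removed cells carried Gip at 67075 CPM in WT set 2 and 43484 in KO set 2, against 6979 and 6120 CPM in the gated cells kept there.

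Over the summed counts of gated cells Gip had the highest mean of the hormone genes, at 37648 and 42199 CPM in WT and KO of set 1 and at 6979 and 6120 CPM in WT and KO of set 2 (23236 ± 19361, SD, n = 4). Among these kept cells it was the highest in set 1 only. In set 2 Cck and Sct were above it in both genotypes, with Sct at 7508 CPM in WT and 8208 in KO, and Gcg was above it in WT at 7939 CPM. This order depends on the doublet step, which took gated cells from set 2 only. The cells removed there had more Gip than Cck, at 67075 against 13752 CPM in WT and 43484 against 7598 in KO. Cck was far more even, at 12337, 11248, 11747 and 9572 CPM (11226 ± 1189). Sct followed at 6784 ± 1548, Gcg at 5132 ± 2137 and Ghrl at 4826 ± 3534 CPM (SD, n = 4 each). Sst (1361 ± 1552), Nts (1042 ± 1569), Tac1 (925 ± 568), Pyy (444 ± 686) and Iapp (31.2 ± 26.8) were lower, and for Sst, Nts and Pyy the SD exceeded the mean. Neighbours in this order overlapped in range over the 4 samples, except that every Cck value was above every Sct value. A UMI tags a transcript once, so these levels were not scaled by length. Of the genes that serve these peptides, Slc5a1, a glucose transporter, and Ffar2 were the most abundant sensors of gated cells (136 ± 30.9 and 119 ± 66.6 CPM, SD, n = 4). Outside the gate Slc5a1 reached 330 CPM and Ffar2 7.32 CPM. The most abundant hormone receptors were Sstr1 (22.9 ± 7.03 CPM) and Sstr5 (16.4 ± 5.46, SD, n = 4). Outside the gate each hormone gene other than Sct was at 32.0 CPM or less, and Sct was at 51.9 to 72.6 CPM.

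To compare cells of different depth, each was thinned to 2000 UMIs, which left out 2 of the 131 gated cells, and a hormone was counted as present at 3 or more of them. Sct was present in 77 of 129 cells, a mean of 59.5% ± 4.69 (SD, n = 4 samples). Cck was present in 51 (39.5% ± 7.02), Ghrl in 32 (24.6% ± 7.49), Gip in 31 (24.7% ± 8.27), Tac1 in 25 (18.7% ± 10.3) and Gcg in 22 (17.2% ± 9.47). Sst was present in 7 cells, Nts in 6, Pyy in 6 and Iapp in 1. Enterocyte-marker cells, chosen to hold no UMI of the 9 endocrine markers, were read as a background. Their median depth was 13747 to 25068 UMIs against 7214 to 12150 in gated cells. Among the enterocyte-marker cells Gip and Sct reached 3 UMIs in 0 of 373, 0 of 193, 0 of 265 and 0 of 835 thinned cells. A count of 0 of 835 allows a share of up to 0.359%. At 1 UMI or more Sct was seen in 3.75% to 5.18% of these cells, so single UMIs were not read as expression. Over all kept cells outside the gate Sct reached 3 UMIs in 13 of 1154 (WT) and 10 of 1201 (KO) thinned cells of set 1. In set 2 it did so in 28 of 2812 (WT) and 17 of 2703 (KO).

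**Figure D3:**
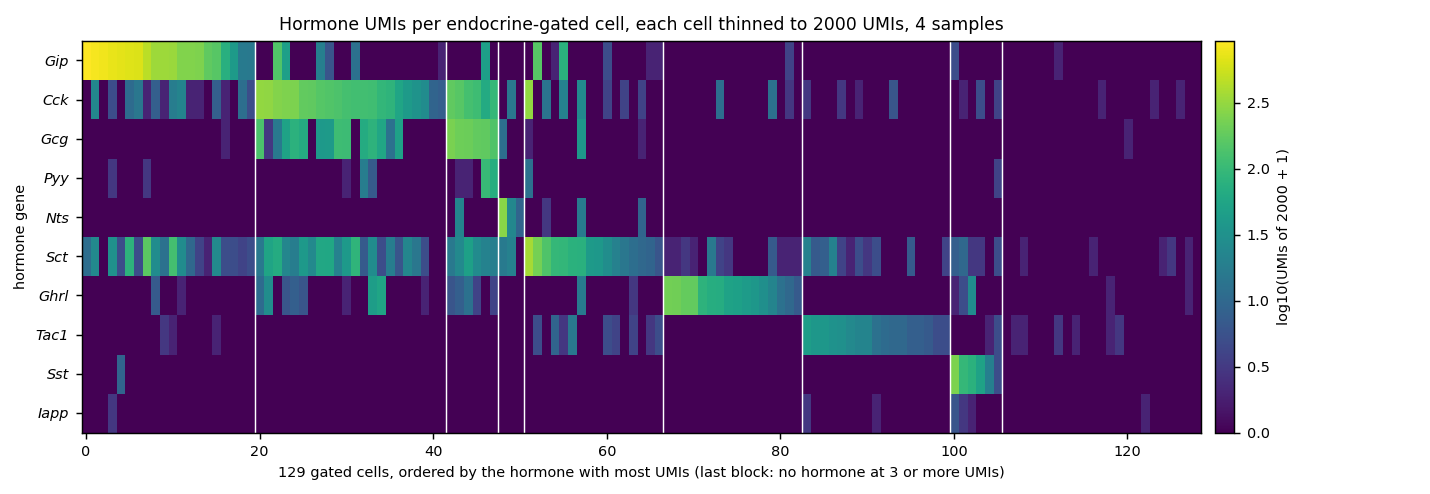
Hormone UMIs in each of 129 gated cells after thinning to 2000 UMIs, as log10(UMIs + 1), with cells in columns ordered by their leading hormone and white lines between blocks. The Gip block of 20 cells reaches 936 UMIs, the Cck and Gcg blocks share Sct, and the last block of 23 cells has no hormone at 3 UMIs.

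Of the 129 cells 23 had no hormone at 3 UMIs, 28 had 1, 32 had 2, 25 had 3, 14 had 4 and 7 had 5 or more. Among the 106 cells with a hormone 78 had 2 or more (73.6%, 95% Clopper-Pearson interval 64.1 to 81.7%), with 70.4% (WT) and 72.7% (KO) in set 1 and 84.0% (WT) and 68.8% (KO) in set 2. Without Sct, which is the most widely shared, 50 of 103 cells (48.5%) still had 2 or more. The interval covers counting error only. The mean over samples was 74.0% and became 56.8% when a hormone needed 10 UMIs.

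Within a cell 1 hormone usually dominated. The hormone with most UMIs held a median of 83.3% of all hormone UMIs of the cell. Gip led in 20 cells with a median of 93.5%, and in the highest of them 936 of 2000 UMIs, or 46.8%, were Gip. Ghrl led in 16 cells with a median of 99.2% and was the gene most often present alone, in 12 of its 32 cells. Tac1 led in 17 cells (85.7%) at low counts, with a median of 9 UMIs where present. Cck led in 22 cells (63.4%), Sct in 16 (72.3%), Gcg in 6 (51.0%), Sst in 6 (87.5%) and Nts in 3 (91.1%). Pyy and Iapp led in none.

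The combinations were uneven. Gcg was present with Cck in 21 of its 22 cells, where the product of both shares within each sample would give 9.32, and with Sct in all 22. All 6 Pyy cells held Cck and Sct, and 4 of them Gcg. Ghrl was in 12 of the 22 Gcg cells, with a product of 4.87. Gip shared 28 of its 31 cells with Sct and 18 with Cck, but 3 with Ghrl (product 7.64). Tac1 was present with Sct in 17 of its 25 cells and with Cck in 3 (product 9.92), and in 0 cells with Gcg (product 4.11) or Ghrl (product 6.13). A count of 0 of 129 cells is limited by the depth of 2000 UMIs, and cells of 1 sample share a library, so these pairs are a description. The pair of Gcg and Cck was seen in 4 of 4 Gcg cells of each set 1 sample, in 10 of 10 of WT set 2 and in 3 of 4 of KO set 2.

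**Figure D4:**
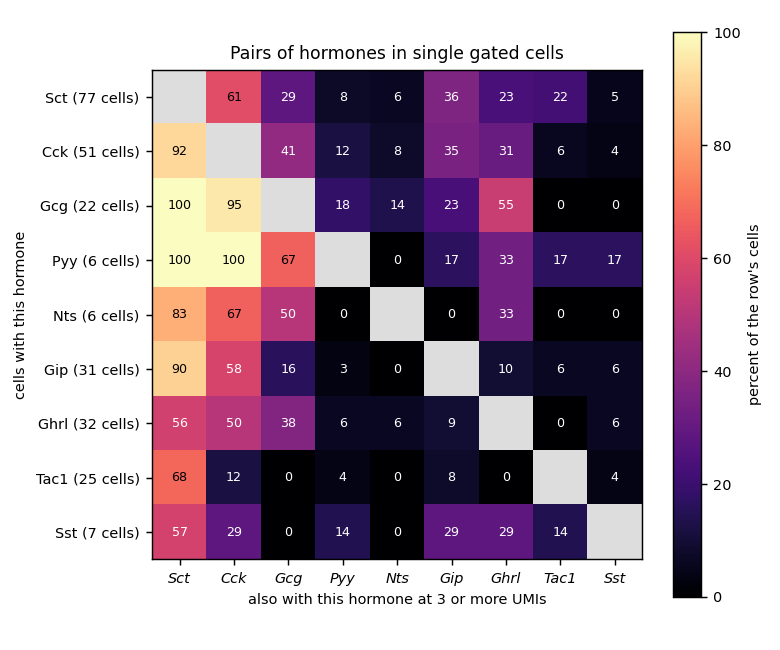
Percent of the cells with the row's hormone (3 or more of 2000 UMIs, number of cells in brackets) that also had the column's hormone, over 129 gated cells of 4 samples; Iapp, with 1 cell, is left out. The Gcg row shows 100% with Sct, 95.5% with Cck and 0 with Tac1 and Sst.

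Likeness between genes within gated cells, taken as Pearson's r within each sample and averaged over the 4 samples among 9018 genes and 131 cells, was also read. Gip was again most like Fabp5 (mean r 0.83, 0.76 to 0.91 over samples), then Sphkap (0.75) and Phlda1 (0.75). Cck and Gcg had the same closest genes, Fars2 (0.77 and 0.79), the long-chain fatty acid receptor Ffar1 (0.77 and 0.64) and Etv1 (0.68 and 0.73). Tac1 was most like Tph1, the enzyme of serotonin synthesis, then Scn3a and Vim, and Ghrl was most like Ceacam10 (0.66) and Cd177 (0.65). Sct was most like Cpe, Scg2 and Myl7. For Sst, Nts, Pyy and Iapp the values rest on 7 cells or fewer, and no gene is named.

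The last comparison asked whether loss of miR-375 changed the hormone genes in gated cells. Summed over gated cells, none of the 10 was called by edgeR's quasi-likelihood test with Benjamini-Hochberg adjustment (all adjusted p 1.00, 2 samples per genotype), which called 0% of 6109 tested genes. Of the 10, 2 had an unadjusted p under 0.05, Tac1 and Nts. Over all tested genes 117 had an unadjusted p under 0.05 by edgeR and 39 by DESeq2, which also called none. The median log2 difference of the 10 (KO minus WT) was -0.15, against -0.01 over all tested genes.

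Tac1 was at 347 CPM in WT set 1 and 1152 in KO set 1, and at 591 in WT set 2 and 1611 in KO set 2. Both KO samples were above both WT samples, with a log2 difference of 1.60 (standard error 0.40, unadjusted p 0.00410). Tac1 was present in 2 of 31 and 5 of 28 cells of set 1 and in 6 of 32 and 12 of 38 cells of set 2, WT first. Nts was at 5.91 and 562 CPM in set 1 and 231 and 3370 in set 2, a difference of 4.06 (standard error 1.31, unadjusted p 0.0157). It was present in 0 and 1 cells of set 1 and in 2 and 3 cells of set 2, so its level rested on single cells, and with the cells removed by doublet score put back its difference was -0.069. The labels give each genotype a sample of set 1 and one of set 2 without saying what a set is. With the set as a replicate block edgeR called both genes, Nts (4.69, adjusted p 5.37e-05) and Tac1 (1.63, adjusted p 0.00201), among 21 genes in all.

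The other hormone genes were within the spread between samples. Cck differed by -0.16 (standard error 0.51), Sct by -0.15 (0.47), Gip by 0.20 (1.10), Gcg by -0.67 (0.54) and Ghrl by -0.85 (0.76). These sums also leaned on single cells. Over the samples the top gated cell held 13.4% to 37.2% of the Cck UMIs, 17.5% to 55.1% for Sct and 20.3% to 54.2% for Gip. It held 24.2% to 63.4% for Gcg, 29.0% to 64.3% for Ghrl, 58.6% to 90.0% for Iapp and 65.6% to 100% for Sst. Sst was at 2658 and 2.29 CPM in set 1 and at 32.2 and 2750 in set 2, WT first, so the direction opposed between sets (difference -0.20, standard error 2.05). Pyy was at 165 and 145 CPM in set 1 and at 1467 and 0 in set 2 (difference -3.23, standard error 1.47, unadjusted edgeR p 0.0611). Without KO replicate 1 the difference was -11.77, in a fit whose 1 KO sample held no Pyy UMI and was assumed to vary like the WT samples. That 0 holds for the kept cells only. The gated cells removed by doublet score carried Pyy at 753 CPM in KO set 2 and at 2485 CPM in WT set 2. Iapp, at 29.5 and 22.9 CPM in set 1 and 4.20 and 68.1 in set 2, differed by 1.51 (standard error 0.82).

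**Figure D5:**
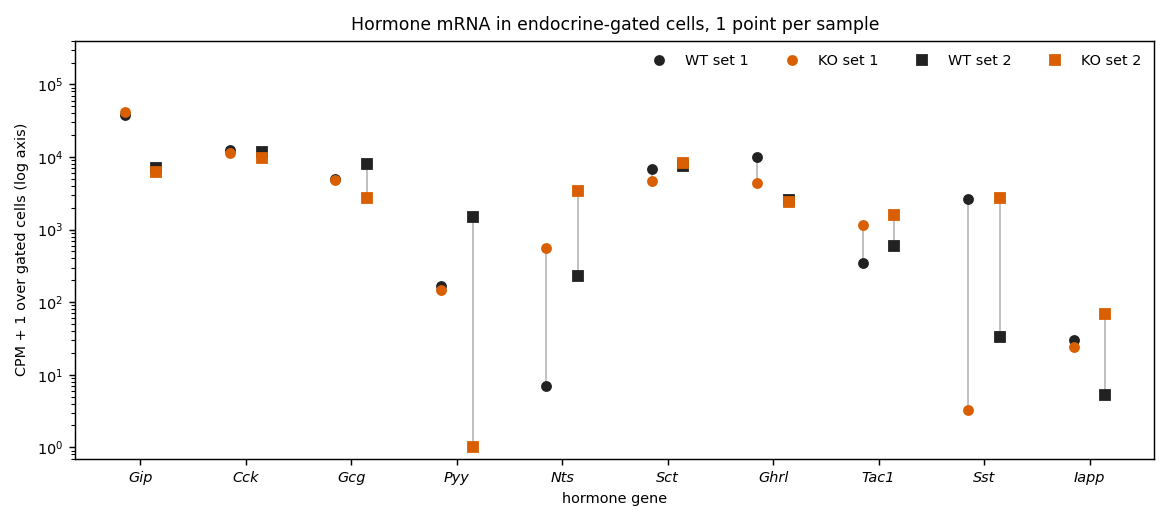
CPM + 1 of each hormone gene over gated cells on a log axis, with 1 point per sample (circles set 1, squares set 2; black WT, orange KO) and a line joining the samples of a set. Cck lies between 9572 and 12337 CPM in all 4 samples, Tac1 and Nts are higher in KO than WT in both sets, and Sst runs in opposite directions in the sets.

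Of the other gene lists tested in gated cells none had a called gene. The 10 tested processing and granule genes had a median difference of 0.26, and some of them, such as Chga and Chgb, had served in the gate. Tph1, which shares cells with Tac1, was at 41.4 and 75.7 CPM in set 1 and 146 and 395 in set 2, WT first, a difference of 1.30 (standard error 0.70, unadjusted p 0.103). Goblet cell markers had a median difference of 0.76 and the 6 tested Paneth cell markers 2.39, of which lysozyme (Lyz1) was at 408 and 3630 CPM in set 1 and 370 and 378 in set 2. The stomach marker Pgc, a pepsinogen gene, was at 1.97 and 71.1 CPM in set 1 and 1.40 and 61.1 in set 2, a difference of 5.21 (standard error 0.61, edgeR adjusted p 0.216), and the 3 tested enteric neuron and glia markers had a median of 1.16. The part of these markers in the hormone values was not tested.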

How the data were processed

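Values of the deposited mRNA table are a signal, normalized counts of genes, and no source used here gives their exact scaling. The 4 deposited single-cell tables give UMI counts as whole numbers, made with the 10X Chromium system per the labels. The submitters' processing notes name Cell Ranger, STAR, Salmon, DESeq2 and mm10, with no role or version. Reads in the mRNA libraries were estimated from the value of 1 read, and 47.2% to 55.9% of values came out whole (tolerance 0.01), so no count test was run on them. Unnamed entries (381) were left out.

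The members and gene lists were chosen with earlier results of these data known. For the mRNA table, log2(value + 1) was tested with limma 3.58.1 (moderated, trend) on genes with a mean of at least 10 normalized counts over the groups compared. Genes with a Benjamini-Hochberg adjusted p under 0.05 were called. A fold change is thus on the log2(value + 1) scale. Cells needed 500 genes, 1000 UMIs and at most 25% mitochondrial UMIs. Cells of highest Scrublet score (scanpy 1.11.5) were removed, 0.8% of cells per 1000 barcodes. Counts of gated cells were summed per sample and tested with edgeR 4.0.16 quasi-likelihood after filterByExpr and TMM scaling, with DESeq2 1.42.0 as an alternative. Both tests were tested on simulated data. CPM were taken over all UMIs of the gated cells.

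Named genes were all 10 members, for each other list up to 6 called genes of largest difference (from lists with none called, the 2 of highest mean), and the 3 genes most like each member, of which 1 is not reported here. The labels give sets 1 and 2 to both genotypes without saying what a set is. Samples of a set deviated together (r 0.46), and the fit with the set as a block is given where stated. Single-cell totals were 24533466 to 70409055 UMIs. Shares carry Clopper-Pearson intervals, which cover counting error only.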

Additional observations from a re-analysis of the deposited data

Results flagged for a closer look

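Of 40 groups of 4 libraries examined (10 hormone genes in each of 4 groups), 2 had a library far from the other 3, and chance alone marks about 1 in 20 such groups. Gcg stood at 26129 normalized counts in germ-free replicate 1, while the other germ-free libraries held 5183 to 7632. The same library was the highest germ-free library for Gip, Cck, Ghrl, Sct, Pyy, Nts and Tac1. Cck stood at 3086 normalized counts in high fat diet replicate 1, below the 7640 to 7704 of the other high fat diet libraries. That library was also the lowest of its group for the other 9 hormone genes.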

How the results depend on the processing

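Every hormone gene kept its direction in germ-free against conventionalized mice in each fit that left out 1 library, while calls moved: 0 to 3 genes were called, 4 with no filter on low values, 4 with the spread from all mRNA groups and 1 with median-of-ratios rescaling. For high fat diet against chow the range was 0 to 7, with 5 called with the replicate block, 5 with no filter and 7 with the column number series as a block, and with a library left out Sst ran from -0.55 to 0.013. Relative to the endocrine markers, 1 was called on the high fat diet with pseudocount 5 and 1 with the replicate block, none with a library left out, where Tac1 ran from -0.15 to 0.13. On that scale 80.4% of all tested genes were called as reported, and the share in those alternative fits is not reported here. In the germ-free comparison the relative values with a library left out ran from -0.32 to 0.41 for Sst, -0.31 to 0.39 for Iapp, -0.58 to 0.43 for Nts and -0.34 to 0.070 for Sct. For conventionalized against chow 4 were called with the replicate block, and with a library left out Iapp ran from -0.71 to 0.012. Over all tested genes the alternative fits of that comparison called 0 to 165, against 17 as reported. Same-numbered bulk libraries did not deviate together in every pair, with r from -0.13 to 0.40 in germ-free against conventionalized mice. The labels do not say whether they share more than a number, and these values cannot decide it. In gated cells 2 were called with the replicate block (the sets) and 2 with no filter on low counts. No alternative fit there called more than 43 genes in all. With a sample left out Cck ran from -0.46 to 0.091, Ghrl from -1.58 to 0.62, Sst from -8.98 to 5.40, Gip from -2.07 to 2.07 and Sct from -0.43 to 0.082. With a gate of 5 markers Cck was 0.054, Sst 0.14 and Sct 0.17, thinning gave Sst 0.74, and without doublet removal Nts was -0.069. At 1 UMI, 10 UMIs and without thinning the share of gated cells was 49.8%, 30.3% and 52.8% for Cck and 73.4%, 38.4% and 82.0% for Sct. At 10 UMIs and without thinning it was 16.4% and 33.4% for Ghrl and 8.19% and 31.7% for Tac1, and for Iapp it was 5.11% at 1 UMI and 3.62% without thinning. The share with 2 or more hormones was 56.8% at 10 UMIs and 87.6% without thinning, and 70.6% to 75.7% with a sample left out. Over all genes, calls in germ-free mice numbered 453 as reported, 1672 with the spread from all groups and 1 to 684 with a library left out, and calls on the high fat diet numbered 135 as reported, 271 with the replicate block, 317 with no filter, 1535 with the series block, 33 with the spread from all groups, 0 to 2590 with a library left out and 12 without both replicates numbered 3. The series block and the replicates numbered 3 were added or compared with results known, and causes were not tested.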

Other observations

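Secretin was the only one of the 10 hormone genes that reached 3 of 2000 UMIs in more than 1 cell of any sample outside the gate. Cells outside the gate were split at 100 goblet marker UMIs of 2000, a limit chosen after the values were seen. In goblet-marker cells Sct reached 3 UMIs in 12 of 134 (WT) and 9 of 195 (KO) cells of set 1 and in 28 of 290 (WT) and 16 of 380 (KO) cells of set 2, against 1 of 1020, 1 of 1006, 0 of 2522 and 1 of 2323 other cells. At 1 UMI it was seen in 36.3% to 53.7% of goblet-marker cells and in 3.17% to 4.09% of the others. Sct stood at 261 to 458 CPM in goblet-marker cells and at 22.0 to 28.5 CPM in the others. Median depths were 14637 to 23149 UMIs against 5974 to 16226.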
